A study of Homo sapiens with 6 samples.

Results

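The FAM83 family is a group of 8 human genes, FAM83A to FAM83H, that share a conserved domain of unknown function, DUF1669, at the start of the protein. The members were chosen by gene symbol, and all 8 had a row in a table of 58735 genes. The libraries came from 3 PANC1OR cultures and 3 PANC1 cultures, 1 library per culture. PANC1OR is an oxaliplatin-resistant subline of PANC1, selected by passaging the cells in medium with more and more of this DNA-damaging platinum compound until they grew stably without it. PANC1, the parental line, was derived from a human pancreatic ductal tumour and is labelled here as untreated. Both lines were grown in DMEM with serum, and the sources used here do not say whether PANC1OR cells were in oxaliplatin when RNA was taken. Each line stands for 1 derivation, so its 3 cultures measure the spread between cultures and not between independently derived resistant lines.

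FAM83 proteins are adaptors with no known enzyme activity. DUF1669 resembles the catalytic domain of phospholipase D, but it binds casein kinase 1 isoforms and brings them to particular places in the cell, such as the mitotic spindle or keratin filaments. FAM83A and FAM83B are also known to act in EGFR, RAF and PI3K signalling, and FAM83B can transform human mammary epithelial cells. The family was picked for description with the level of FAM83B in these libraries already known, so the comparison of PANC1OR with PANC1 is given for its members as a description, without p-values.

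Of the 8 members, 4 were expressed in PANC1OR above 10 CPM (read counts scaled to the size of the library), namely FAM83B, FAM83D, FAM83G and FAM83H. In PANC1 the expressed members were FAM83D, FAM83G and FAM83H, and FAM83B had 0 reads in all 3 libraries. FAM83A, FAM83C, FAM83E and FAM83F stayed under 1 CPM in every library of both lines. The summed CPM of the family was 179, 171 and 294 in PANC1OR, against 120, 131 and 125 in PANC1. Without FAM83B the sums were 135, 127 and 274 in PANC1OR, against 120, 131 and 125 in PANC1, so that PANC1OR replicates 1 and 2 lay within or close to the PANC1 values and replicate 3 lay far above them.

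The 6 libraries held 12623721 to 26394388 reads in PANC1OR and 10199268 to 15875431 reads in PANC1. One library stood apart: in PANC1OR replicate 3, genes with a GC content over 60% were 1.32 higher on the log2 scale (median) than in the mean of PANC1OR replicates 1 and 2, and genes under 40% GC were 0.95 lower (-0.95). PANC1 replicate 2 deviated the same way and less from the other PANC1 libraries, by 0.34 and -0.25. Where the call of a named member, partner or neighbour changed without PANC1OR replicate 3, its value without that library is given beside it. Leaving out that library raised the share of all tested genes called from 17.8% to 44.1%. Of 8 markers of pancreatic duct epithelium, 8 averaged above 1 CPM in PANC1OR and 7 in PANC1, with KRT7 the exception. Of these, KRT19, CDH1 and SOX9 fell in PANC1OR. CDH1, the epithelial cadherin, averaged 5.67 ± 0.86 CPM in PANC1OR and 13.3 ± 0.18 CPM in PANC1 (edgeR adjusted p = 0.00613), and SOX9, a duct transcription factor, averaged 127 ± 24.3 CPM in PANC1OR and 202 ± 6.15 CPM in PANC1 (edgeR adjusted p = 0.0447). The summed level of all 8 was 687 to 1401 CPM in PANC1OR and 1072 to 1960 CPM in PANC1. Markers of other cell types were low apart from COL1A1 and, in PANC1OR, CD14. The 4 immune markers summed to 2.28 to 4.95 CPM in PANC1OR and 0.245 to 0.436 CPM in PANC1, with the T cell gene CD3E at 0 in all 6 libraries. CD14 rose, with a mean of 2.84 ± 1.54 CPM in PANC1OR and 0.290 ± 0.097 CPM in PANC1 (edgeR adjusted p = 0.00412). The 4 endothelial markers summed to 0.0826 to 0.25 CPM in PANC1OR and 0.187 to 0.627 CPM in PANC1. The 4 acinar markers reached at most 0.187 CPM in PANC1OR and were at 0 in PANC1, and the islet hormones INS, GCG and SST were at 0 in all 6 libraries. The 4 fibroblast markers summed to 109 to 291 CPM in PANC1OR and 80.5 to 95.4 CPM in PANC1, of which COL1A1 was the 1 gene above 1 CPM, with a mean of 172 ± 103 CPM in PANC1OR and 87.3 ± 7.5 CPM in PANC1 (edgeR adjusted p = 0.123). The part of these levels in the results below was not tested.

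FAM83B (ENSG00000168143) encodes an adaptor that binds EGFR and the PI3K regulatory subunit. The gene lies on GRCh38 at chr6:54846771-54945099 on the plus strand, and its 5 exons make a transcript of 6244 bases with 37.7% GC. FAM83B had 1194, 706 and 246 reads in the PANC1OR libraries, and 0, 0 and 0 reads in the PANC1 libraries. As CPM these were 44.6, 44.1 and 20.3 in PANC1OR, against 0 in each PANC1 library. The lowest PANC1OR library thus held 246 reads where no PANC1 library held any. The mean was 36.3 ± 13.9 CPM in PANC1OR (SD, n = 3). A count of 0 over the 3 PANC1 libraries allows up to 3 reads, or 0.0715 CPM, and the FAM83B mean in PANC1OR was 509-fold this floor. The exact 95% counting interval of the ratio of summed CPM, which also covers the counting error of the PANC1OR reads, begins at 445. This floor, like the intervals given below, covers counting error only and not the spread between cultures. Reads copied by PCR are not independent molecules, so the counting error itself may be larger. A larger share of cells expressing the gene and more RNA per cell cannot be told apart in bulk libraries.

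The lower value of PANC1OR replicate 3 went with its GC deviation. FAM83B was 1.12 lower (-1.12 on the log2 scale) in replicate 3 than in the mean of PANC1OR replicates 1 and 2, and the 2447 tested genes within 2 percentage points of its GC content had a median of -0.90. Among 3858 genes with 0 reads in all PANC1 libraries and at least 1 read in PANC1OR, FAM83B had the highest PANC1OR mean. Of these genes 24 averaged at least 1 CPM in PANC1OR and 4 at least 10 CPM. The others, each given here by its PANC1OR mean, were MAGEA12 with 11.4 ± 2.36 CPM, a long noncoding RNA inside FAM83B with 11.3 ± 4.51 CPM, and CSAG1 with 11.2 ± 2.47 CPM (SD, n = 3). They are not all separate places in the genome. The noncoding RNA lies within FAM83B exons, and MAGEA12 and CSAG1 are adjacent at chrX:152733757-152737669 and chrX:152727484-152733735.

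**Figure D1:**
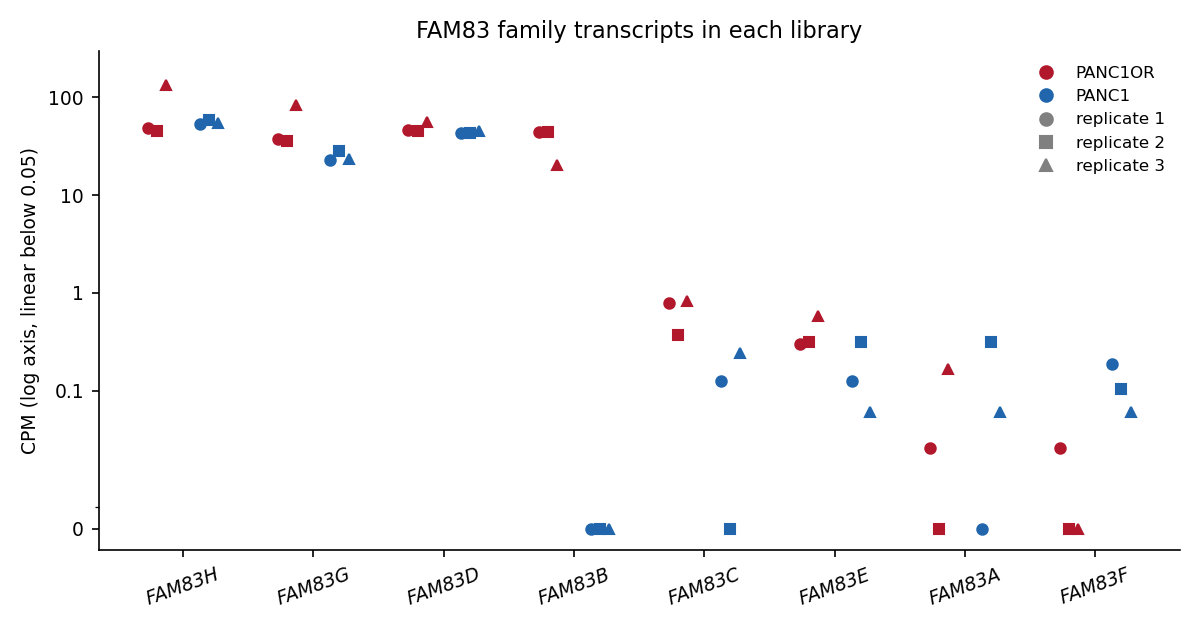
Level of each FAM83 member in each library, in CPM on a log axis that is linear below 0.05, with PANC1OR in red to the left of PANC1 in blue and 1 symbol shape per replicate number. FAM83B lies between 20.3 and 44.6 CPM in PANC1OR and at 0 in PANC1, FAM83H and FAM83G have their highest values in PANC1OR replicate 3, and the 4 members to the right stay under 1 CPM.

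The noncoding RNA (ENSG00000261116) is annotated on the same strand at chr6:54943167-54945099, and all of its 1933 bases lie within FAM83B exons at the end of the gene. It had 372, 223 and 74 reads in the PANC1OR libraries and 0, 0 and 0 reads in the PANC1 libraries. Its count was 31.2%, 31.6% and 30.1% of the FAM83B count in the 3 PANC1OR libraries. These nearly constant ratios stand beside lengths of 1933 bases for the noncoding RNA and 6244 exon bases for FAM83B. Whether the same reads were counted for both was not tested. How reads that fall in both annotations were assigned is not stated, so the 2 transcripts cannot be told apart from these counts. Either way, reads from this stretch were present in PANC1OR and absent from the counts of PANC1.

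To show what surrounds the start of the gene, the RefSeq promoter window of FAM83B is given below with that of FAM83G, the other expressed member whose PANC1OR libraries all lay above its PANC1 libraries. Each window runs from 250 bases before to 50 bases after the annotated start, 5′ to 3′ on the gene's strand, from GRCh38.p14, at chr6:54846521-54846820 on the plus strand for FAM83B and at chr17:19004715-19005014 on the minus strand for FAM83G. Capitals mark each CG dinucleotide, the site of DNA methylation in human cells, which was not measured here.
FAM83B: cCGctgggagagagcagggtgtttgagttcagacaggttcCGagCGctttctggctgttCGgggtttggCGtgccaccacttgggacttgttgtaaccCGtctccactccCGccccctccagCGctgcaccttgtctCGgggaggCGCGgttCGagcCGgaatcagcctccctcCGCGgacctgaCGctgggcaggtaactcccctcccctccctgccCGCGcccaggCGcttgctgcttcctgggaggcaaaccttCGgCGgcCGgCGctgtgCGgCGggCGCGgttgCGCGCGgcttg
FAM83G: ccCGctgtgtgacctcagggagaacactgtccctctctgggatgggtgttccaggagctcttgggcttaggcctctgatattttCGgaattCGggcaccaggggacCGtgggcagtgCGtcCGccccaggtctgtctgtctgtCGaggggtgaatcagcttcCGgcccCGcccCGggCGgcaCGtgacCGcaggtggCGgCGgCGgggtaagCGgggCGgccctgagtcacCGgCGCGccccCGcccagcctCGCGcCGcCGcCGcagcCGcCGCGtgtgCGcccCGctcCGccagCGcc
The FAM83B window held 30 CG dinucleotides and 68.7% GC, which placed it above 77.6% of the 35116 promoter windows of the table by CG count, whose median was 14. The FAM83G window held 34 CG dinucleotides and 72.3% GC, above 84.4% of the windows. Promoter windows of the same table for FAM83C and FAM83E, members under 1 CPM in both lines, held 11 and 9 CG dinucleotides and lay above 45.3% and 41.6% of the windows. These 4 members had an entry in the table.

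The motifs below were searched on both strands of each window. GGGCGG, the GC box bound by SP1 and its relatives, was found 1 time in the FAM83B window, with its first base at position 110 of 300, and 5 times in the FAM83G window. It was also found 2 times in the FAM83C window and 1 time in the FAM83E window, and 45.0% of all windows held it. TGANTCA, with any base at N, is a loose form of the AP-1 element TGACTCA or TGAGTCA bound by FOS and JUN proteins. This loose form was found at positions 151 (TGAATCA) and 224 (TGAGTCA) of the FAM83G window and in none of the other 3. Of all windows, 7.71% held the loose form. TATAAA was found in none of the 4 windows, and 11.5% of all windows held it. Positions count from 1 at the 5′ end of the window. No motif is contained in another, TGANTCA reads the same on both strands, and a match is a description of the sequence and not of binding.

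Some genes around FAM83B were silent in both lines and others were not, and how common this is around other genes was not examined. Within 1000 kb on each side of the gene lie 7 other protein-coding genes, and 4 of them, MLIP, TINAG, GFRAL and HMGCLL1, had 0 reads in all 6 libraries. HCRTR2, the gene of an orexin receptor that starts 260 kb beyond the start of FAM83B, had 25, 22 and 8 reads in PANC1OR and 0, 0 and 0 reads in PANC1. Like FAM83B it was seen in every PANC1OR library and in no PANC1 library, and its PANC1OR mean was 13.9-fold the same floor of 3 reads. LRRC1, a scaffold protein gene on the other side, averaged 20.1 ± 3.40 CPM in PANC1OR and 13.6 ± 1.3 CPM in PANC1, with a log2 fold change of 0.56 ± 0.22 (SE) that did not pass the test (edgeR adjusted p = 0.128) but was called higher without PANC1OR replicate 3, at 0.68 ± 0.14. BMP5, a secreted BMP ligand, averaged 3.48 ± 0.73 CPM in PANC1OR and 2.97 ± 0.66 CPM in PANC1 and did not pass either (edgeR adjusted p = 0.663).

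Farther out, the 3 nearest tested genes on each side of FAM83B included 2 more that rose. COL21A1, a fibril-associated collagen gene 1210 kb from FAM83B by their lower coordinates, had 29.7, 30.7 and 20.6 CPM in PANC1OR, against 1.99, 1.88 and 2.51 CPM in PANC1 (log2 fold change 3.65 ± 0.27, SE; edgeR adjusted p = 9.38e-05). The uncharacterised gene LOC124901333 had 1.98, 1.81 and 0.908 CPM in PANC1OR, against 0.374, 0.522 and 0.306 CPM in PANC1 (log2 fold change 2.03 ± 0.44, SE; edgeR adjusted p = 0.015), a call that was lost when PANC1OR replicate 1 or 2, or PANC1 replicate 1 or 3, was left out. KLHL31, LRRC1 and BMP5 did not pass the test.

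**Figure D2:**
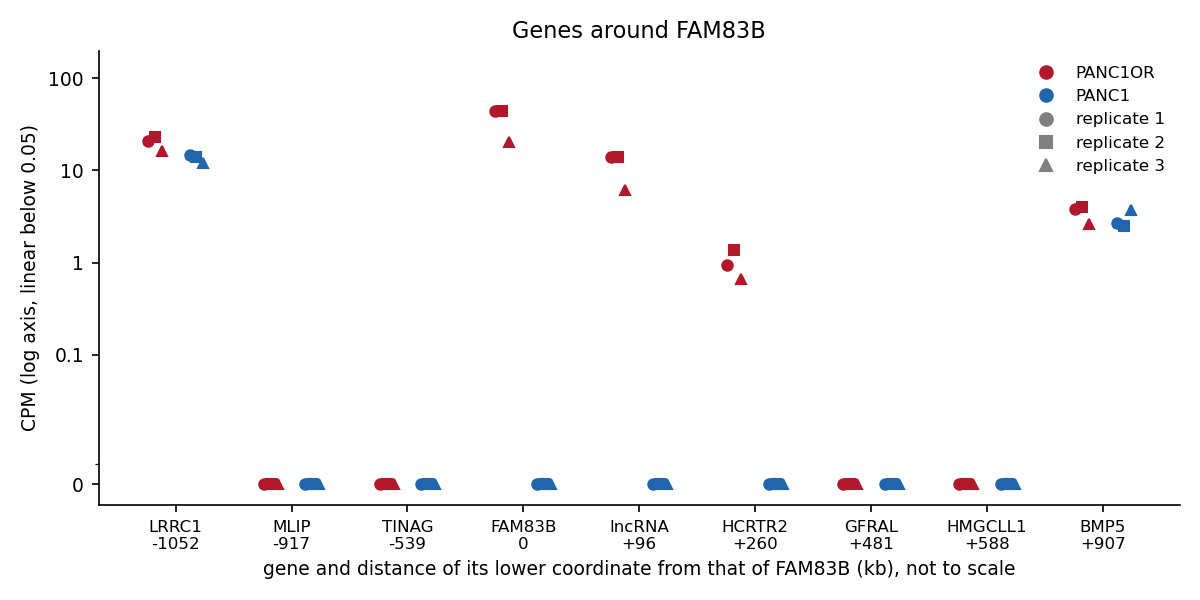
CPM of FAM83B, of the noncoding RNA within it and of the 7 other protein-coding genes within 1000 kb, in each library, on a log axis that is linear below 0.05, with PANC1OR in red to the left of PANC1 in blue. FAM83B, the noncoding RNA and HCRTR2 have values in PANC1OR and 0 in PANC1, 4 genes are at 0 in both lines, and LRRC1 and BMP5 have values in both.

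Genes were ranked by the Euclidean distance of their 6 log2 CPM values, with a prior count of 2, from those of FAM83B. The nearest were SRGN at a distance of 1.38, TRIML2 at 2.12, TMEM233 at 2.36, MSC-AS1 at 2.65 and GREM1 at 2.68. This distance reflects the level of a gene as well as its shape over the libraries. Genes near FAM83B by this distance are high in PANC1OR and low in PANC1 by the way they were picked, so nothing is read from that. SRGN, the gene of the proteoglycan serglycin, had 40.6, 45.7 and 33.7 CPM in PANC1OR, against 0.125, 0 and 0.0612 CPM in PANC1. Each of the others was likewise above 7 CPM in every PANC1OR library and under 0.2 CPM in every PANC1 library. MSC-AS1 was the closest to FAM83B in its drop in PANC1OR replicate 3, with 16.2, 16.9 and 7.02 CPM in PANC1OR, against 0.0623, 0 and 0.0612 CPM in PANC1.

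FAM83A (ENSG00000147689), the relative of FAM83B that also binds the PI3K regulatory subunit, was all but absent. It had 1, 0 and 2 reads in PANC1OR and 0, 3 and 1 reads in PANC1. The ratio of its summed CPM was 0.574, with an exact 95% counting interval of 0.0841 to 3.39, so that no difference in either direction was detectable at this depth. Its antisense RNA FAM83A-AS1 had 0 reads in PANC1OR and 5 in PANC1, and the sources used here do not say whether strand was used in counting. FAM83A lies at chr8:123178960-123210079 on the plus strand.

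FAM83D (ENSG00000101447; chr20:38926312-38953106, plus strand) binds HMMR and casein kinase 1 alpha and brings the kinase to the mitotic spindle. It had 1256, 726 and 671 reads in PANC1OR and 697, 414 and 749 reads in PANC1. As CPM these were 46.9, 45.3 and 55.4 in PANC1OR, against 43.4, 43.2 and 45.8 in PANC1. The groups overlapped, and FAM83D varied least between PANC1OR libraries among the expressed members. Its mean was 49.2 ± 5.41 CPM in PANC1OR and 44.1 ± 1.44 CPM in PANC1 (SD, n = 3 each), a log2 fold change of 0.16 ± 0.18 (SE) that was called under none of the alternative settings. Its GC content of 51.2% lies where PANC1OR replicate 3 deviated little.

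FAM83G (ENSG00000188522; chr17:18968789-19004764, minus strand), also called PAWS1, binds SMAD1 and casein kinase 1 alpha and is known to act in BMP and Wnt signalling. It had 1005, 574 and 1004 reads in PANC1OR and 365, 270 and 381 reads in PANC1. As CPM these were 37.6, 35.8 and 82.9 in PANC1OR, against 22.7, 28.2 and 23.3 in PANC1. All 3 PANC1OR libraries lay above all 3 PANC1 libraries, with replicate 3 well above the other two. The means were 52.1 ± 26.7 CPM in PANC1OR and 24.7 ± 3.01 CPM in PANC1 (SD, n = 3 each), a log2 fold change of 1.07 ± 0.35 (SE) that was not called with all 6 libraries. Without PANC1OR replicate 3 the fold change was smaller and its error smaller still, 0.56 ± 0.14, and FAM83G was then called higher. It was also called higher without PANC1OR replicate 2 at 1.27 ± 0.35, and with offsets that remove the GC trend of each library at 0.99 ± 0.10. Of all tested genes, 44.1% were called without PANC1OR replicate 3, 12.5% without PANC1OR replicate 2 and 39.0% with these offsets. The gene SLC5A10 on the opposite strand shares 529 exon bases with FAM83G and had 3 reads in PANC1OR and 2 in PANC1.

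FAM83H (ENSG00000180921; chr8:143723933-143738234, minus strand) brings casein kinase 1 to keratin filaments and is best known for mutations that cause a defect of tooth enamel. It had 1308, 728 and 1621 reads in PANC1OR and 851, 562 and 904 reads in PANC1. As CPM these were 48.9, 45.5 and 134 in PANC1OR, against 53.0, 58.7 and 55.3 in PANC1. PANC1OR replicates 1 and 2 lay below every PANC1 library and replicate 3 lay above every one. The means were 76.1 ± 50.1 CPM in PANC1OR and 55.7 ± 2.88 CPM in PANC1 (SD, n = 3 each), a log2 fold change of 0.45 ± 0.40 (SE) that was not called. The direction turned without PANC1OR replicate 3, to -0.25 ± 0.11, which was not called. Without that library and PANC1 replicate 2 it was -0.22 ± 0.08 and was called lower, whereas GC offsets gave 0.31 ± 0.11 and a call of higher, so the direction of FAM83H was not settled by these libraries.

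**Figure D3:**
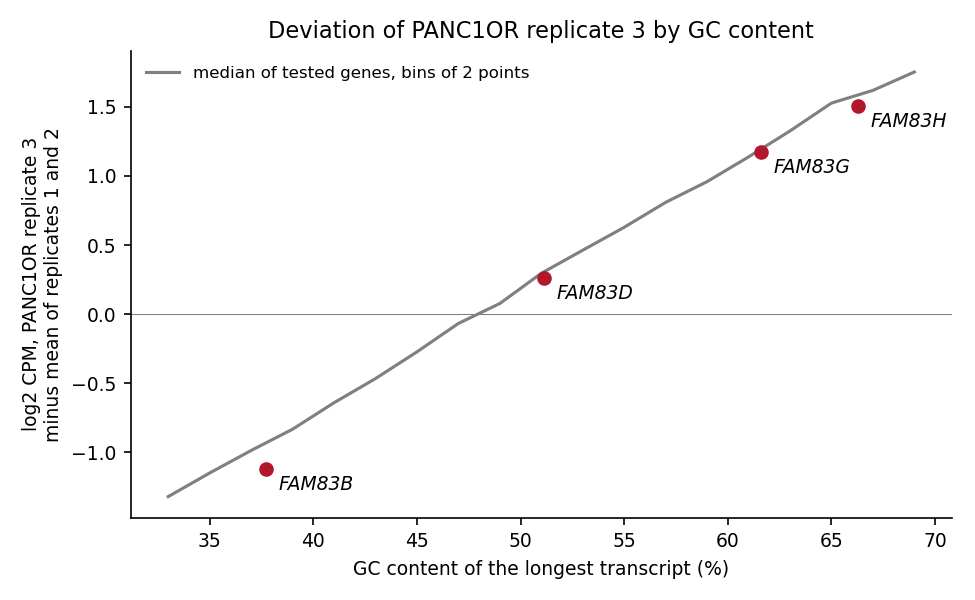
Deviation of PANC1OR replicate 3 from the mean of PANC1OR replicates 1 and 2, in log2 CPM, against the GC content of the longest transcript in percent. The grey line is the median of tested genes in bins of 2 percentage points and the red points are the 4 expressed members, which lie on or close to the line from FAM83B at -1.12 to FAM83H at 1.5.

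The expressed members thus ranked in PANC1OR replicate 3 by their GC content. FAM83H, with 66.3% GC, deviated by 1.5 from the mean of PANC1OR replicates 1 and 2 in log2 CPM, and 593 tested genes of like GC had a median of 1.56. FAM83G, with 61.6% GC, deviated by 1.17, as did 1561 genes of like GC. FAM83D deviated by 0.26, and 2406 genes of like GC had a median of 0.29. These are differences between libraries of 1 line and not between lines.

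**Figure D4:**
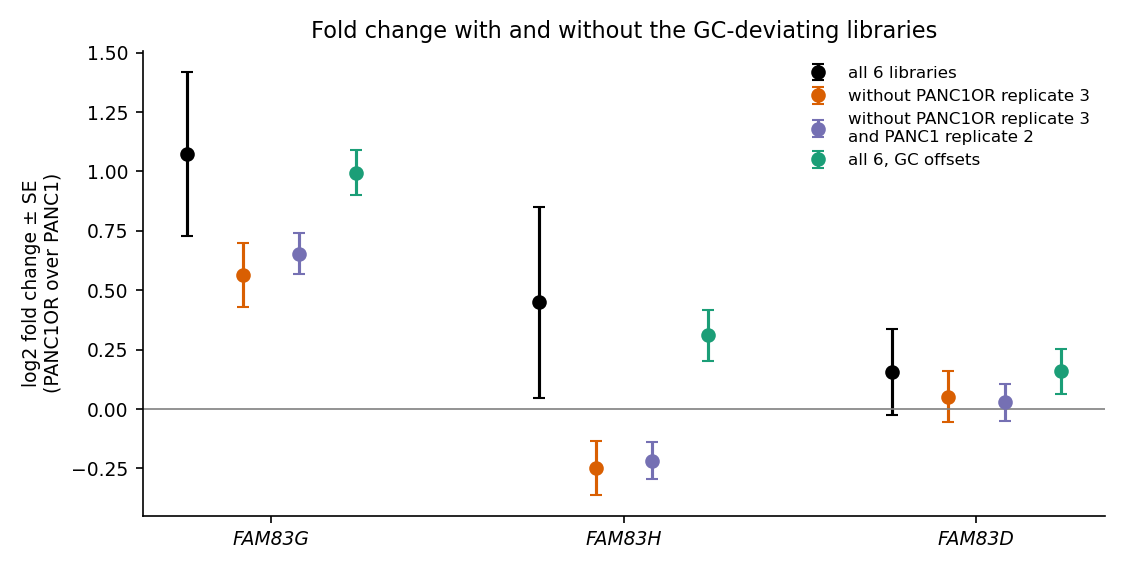
Log2 fold change of FAM83G, FAM83H and FAM83D, PANC1OR over PANC1, with its standard error, in the fit of all 6 libraries, without PANC1OR replicate 3, without that library and PANC1 replicate 2, and with GC offsets. FAM83G stays above 0 in all 4 fits, FAM83H lies above 0 in the 2 fits that hold all libraries and below 0 in the other two, and FAM83D stays close to 0.

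FAM83C, FAM83E and FAM83F, which like the rest of the family carry DUF1669, had few reads in both lines. FAM83C (ENSG00000125998; chr20:35285731-35292425, minus strand) had 21, 6 and 10 reads in PANC1OR and 2, 0 and 4 reads in PANC1. Its CPM values of 0.785, 0.375 and 0.826 in PANC1OR all lay above those of 0.125, 0 and 0.245 in PANC1. The ratio of summed CPM was 4.72, with an exact 95% counting interval of 1.97 to 13.7 that covers the counting of these reads and not the spread between cultures. The antisense RNA FAM83C-AS1, which shares 26 exon bases with it, had 35 reads in PANC1OR and 7 in PANC1. FAM83E (ENSG00000105523; chr19:48599961-48615076, minus strand) had 8, 5 and 7 reads in PANC1OR and 2, 3 and 1 reads in PANC1, with a ratio of 2.55 and an interval of 0.988 to 7.76 that includes 1. FAM83F (ENSG00000133477; chr22:39994954-40043534, plus strand), known in other cells to hold casein kinase 1 alpha at the plasma membrane, had 1, 0 and 0 reads in PANC1OR and 3, 1 and 1 reads in PANC1. Its ratio was 0.153, with an interval of 0.00324 to 1.37, so that a difference was not detectable at this depth.

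Counted over the family, 4 members passed the filter on low counts and 4 did not, and FAM83B passed only through PANC1OR. Of the 4 tested, 1 member, FAM83B, was called higher, and FAM83D, FAM83G and FAM83H were not called. Over all 18751 tested genes, 17.8% were called, 10.3% higher and 7.5% lower. PANC1OR libraries all lay above PANC1 libraries for FAM83B, FAM83G and the untested FAM83C, and all lay below for the untested FAM83F, where 1 read stood against 5. Over all tested genes, 18.9% had every PANC1OR library above and 17.6% every PANC1OR library below. The members were chosen with this comparison known, so nothing is read from these shares. The count of members called was 2 with DESeq2, 2 with the likelihood ratio test, in both cases FAM83B and FAM83G, and 3 without a filter on low counts, where FAM83C was also called higher. Those 3 settings called 21.7%, 20.5% and 11.4% of all the genes they tested.

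Levels of the members were compared with each other as CPM per kilobase of annotated exon. In PANC1OR the order was FAM83D with 19.9 ± 2.19, FAM83H with 12.2 ± 8.05, FAM83G with 6.68 ± 3.42 and FAM83B with 5.82 ± 2.22 (SD, n = 3), followed by FAM83C at 0.209, FAM83E at 0.0961, FAM83A at 0.0107 and FAM83F at 0.00076. Each of FAM83D, FAM83H and FAM83G overlapped with the next in the order over its libraries, while FAM83B lay above FAM83C in every library. In PANC1 the order was FAM83D with 17.8 ± 0.58, FAM83H with 8.95 ± 0.46 and FAM83G with 3.17 ± 0.39 CPM per kilobase (SD, n = 3), with no overlap between neighbours, and FAM83B was last at 0. By this level FAM83B stood above 62.3% of tested genes in PANC1OR, and FAM83D above 88.7% in PANC1OR and 87.1% in PANC1. Lengths of the longest transcript gave the same order, with FAM83G at 9.97 CPM per kilobase in PANC1OR and 4.73 in PANC1. Of the summed CPM of the family, FAM83B made up 24.9%, 25.7% and 6.91% in the 3 PANC1OR libraries and 0% in PANC1.

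To see whether genes linked to FAM83 proteins differed between the lines, 89 genes in 6 lists were examined, of which 83 were tested. The lists hold known partners, other genes of their families and pathways, and relatives of DUF1669. Of these 4 rose and 14 fell in PANC1OR, while 10.3% of all tested genes rose and 7.5% fell. Leaving out PANC1OR replicate 3, or using GC offsets, kept all 18 calls in the same direction, while leaving out PANC1OR replicate 1 kept 6 of them, PANC1OR replicate 2 kept 9, PANC1 replicate 1 kept 7, PANC1 replicate 2 kept 12 and PANC1 replicate 3 kept 7. The 5 genes called the same way under every alternative were ERBB3, PIK3R1, SMAD9, ID2 and KRT19. The lists were chosen with earlier results of these data known, and the median log2 fold change over all tested genes was 0.04.

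Of 7 genes of the casein kinase 1 family, 6 were tested, of which 2 fell and 4 did not pass, with a median log2 fold change of -0.35. The list holds the whole family, and not each isoform in it is a known binder of DUF1669. CSNK1A1, casein kinase 1 alpha, which all FAM83 proteins are known to bind, had 177, 176 and 160 CPM in PANC1OR, against 261, 271 and 261 CPM in PANC1 (log2 fold change -0.63 ± 0.16, SE; edgeR adjusted p = 0.028). The groups did not overlap, and PANC1OR replicate 3 lay close to the other PANC1OR libraries. CSNK1G1, a membrane-bound isoform that is not among the binders named here, averaged 42.8 ± 3.10 CPM in PANC1OR and 67.0 ± 4.25 CPM in PANC1 (log2 fold change -0.64 ± 0.17, SE; edgeR adjusted p = 0.0375). The delta and epsilon isoforms, which a subset of FAM83 proteins binds, did not pass the test. CSNK1D averaged 173 ± 61.8 CPM in PANC1OR and 224 ± 22.9 CPM in PANC1 (edgeR adjusted p = 0.391), and fell without PANC1OR replicate 3 (log2 fold change -0.72, against -0.38 with it; edgeR adjusted p = 0.00215). CSNK1E averaged 59.5 ± 18.8 CPM in PANC1OR and 56.6 ± 3.92 CPM in PANC1 (edgeR adjusted p = 0.888). Both calls were lost when any 1 of PANC1OR replicates 1 and 2 and PANC1 replicates 1, 2 and 3 was left out, or when no filter on low counts was used. Without PANC1OR replicate 3, 4 genes were called lower, in a fit that called 44.1% of all tested genes in either direction.

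Of 25 genes of EGFR, RAS, RAF and PI3K signalling, the pathway that FAM83A and FAM83B are known to act in, 24 were tested, of which 1 rose, 4 fell and 19 did not pass, with a median log2 fold change of -0.08. ERBB3, a receptor that pairs with other EGFR family members, had 17.9, 17.9 and 21.6 CPM in PANC1OR, against 2.12, 2.19 and 2.69 CPM in PANC1 (log2 fold change 3.03 ± 0.24, SE; edgeR adjusted p = 0.000114). PIK3R1, the PI3K regulatory subunit p85 alpha, had 14.9, 14.7 and 9.25 CPM in PANC1OR, against 50.7, 40.5 and 47.7 CPM in PANC1 (log2 fold change -1.83 ± 0.25, SE; edgeR adjusted p = 0.0017). Neither gene's groups overlapped. EGFR was abundant in both lines, with a mean of 674 ± 20.4 CPM in PANC1OR and 720 ± 121 CPM in PANC1, and did not pass the test (edgeR adjusted p = 0.789).

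The adaptor GAB1 and the kinase MAP2K1 also fell. GAB1 averaged 2.16 ± 0.48 CPM in PANC1OR and 4.76 ± 0.81 CPM in PANC1 (log2 fold change -1.14 ± 0.28, SE; edgeR adjusted p = 0.0251). MAP2K1 averaged 37.9 ± 6.86 CPM in PANC1OR and 62.6 ± 2.07 CPM in PANC1 (log2 fold change -0.72 ± 0.20, SE; edgeR adjusted p = 0.0389). The number of genes of this list called was 2 when PANC1OR replicate 1 was left out, 3 for PANC1OR replicate 2, 2 for PANC1 replicate 1 or 3, 3 for PANC1 replicate 2, and 15 for PANC1OR replicate 3, of which 4 were higher and 11 lower. That last fit called 44.1% of all tested genes, against 17.8% with all 6 libraries.

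Of 18 mitotic genes, which include the spindle partners of FAM83D, all were tested, of which 1 rose, 2 fell and 15 did not pass, with a median log2 fold change of -0.23. TPX2, which activates Aurora A on the spindle, averaged 1129 ± 111 CPM in PANC1OR and 715 ± 97.3 CPM in PANC1 (log2 fold change 0.66 ± 0.19, SE; edgeR adjusted p = 0.0444). KIF20A, a kinesin of cell division, averaged 54.8 ± 5.54 CPM in PANC1OR and 105 ± 7.63 CPM in PANC1 (log2 fold change -0.94 ± 0.18, SE; edgeR adjusted p = 0.00775). CCNB1, cyclin B1, averaged 147 ± 4.33 CPM in PANC1OR and 255 ± 33.6 CPM in PANC1 (log2 fold change -0.79 ± 0.17, SE; edgeR adjusted p = 0.0153). HMMR and KIF22, whose proteins are known to bind FAM83D, did not pass the test. HMMR had 63.9, 64.9 and 29.3 CPM in PANC1OR, against 84.4, 88.5 and 68.7 CPM in PANC1 (edgeR adjusted p = 0.238), and KIF22 averaged 90.9 ± 31.0 CPM in PANC1OR and 101 ± 20.7 CPM in PANC1 (edgeR adjusted p = 0.778), with a log2 fold change of -0.15 that became -0.47 and a call of lower without PANC1OR replicate 3 (edgeR adjusted p = 0.0482). CDC20, an activator of the anaphase-promoting complex, averaged 140 ± 64.4 CPM in PANC1OR and 264 ± 72.7 CPM in PANC1 and did not pass (log2 fold change -0.91; edgeR adjusted p = 0.112), but fell without PANC1OR replicate 3 (-1.36; edgeR adjusted p = 0.00117). All 3 calls were lost when PANC1OR replicate 1 was left out, and the number called was 1 without PANC1OR replicate 2 or PANC1 replicate 3, and 10 without PANC1OR replicate 3, of which 3 were higher and 7 lower. The share of all tested genes called without PANC1OR replicate 3 was 44.1%.

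Of 23 genes of the BMP-SMAD and Wnt pathways, in which FAM83G is known to act, all were tested, of which 1 rose, 5 fell and 17 did not pass, with a median log2 fold change of -0.11. SMAD9, a BMP receptor-regulated SMAD, had 0.673, 0.812 and 0.165 CPM in PANC1OR, against 7.47, 7.31 and 6.48 CPM in PANC1 (log2 fold change -3.60 ± 0.42, SE; edgeR adjusted p = 0.000784). ID2, a transcriptional target of BMP signalling, averaged 4.79 ± 0.08 CPM in PANC1OR and 12.1 ± 1.76 CPM in PANC1 (log2 fold change -1.34 ± 0.22, SE; edgeR adjusted p = 0.00431). The inhibitory SMADs fell as well. SMAD7 averaged 12.1 ± 4.37 CPM in PANC1OR and 29.9 ± 5.55 CPM in PANC1 (log2 fold change -1.31 ± 0.30, SE; edgeR adjusted p = 0.0182), and SMAD6 averaged 14.9 ± 5.31 CPM in PANC1OR and 32.8 ± 2.24 CPM in PANC1 (edgeR adjusted p = 0.0238). The calls of SMAD6 and SMAD7 were both lost when any 1 library other than PANC1OR replicate 3 was left out.

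The type I BMP receptor ACVR1 rose, with a mean of 72.3 ± 5.75 CPM in PANC1OR and 36.6 ± 6.38 CPM in PANC1 (log2 fold change 0.98 ± 0.20, SE; edgeR adjusted p = 0.0118). GSK3B, a kinase that phosphorylates beta-catenin after casein kinase 1 alpha, fell, with a mean of 54.6 ± 10.2 CPM in PANC1OR and 99.9 ± 15.6 CPM in PANC1 (edgeR adjusted p = 0.0278). SMAD1, which FAM83G binds, had 18.9, 19.5 and 15.7 CPM in PANC1OR, against 15.6, 14.0 and 12.7 CPM in PANC1, without overlap, and did not pass the test (edgeR adjusted p = 0.301), but was called higher without PANC1OR replicate 3 (log2 fold change 0.44, against 0.36 with it; edgeR adjusted p = 0.0367). The number called was 2 when PANC1OR replicate 1 was left out, 3 for PANC1OR replicate 2, 2 for PANC1 replicate 1, 3 for PANC1 replicate 3, and 13 without PANC1OR replicate 3, of which 2 were higher and 11 lower. Leaving out PANC1OR replicate 3 gave calls for 44.1% of all tested genes.

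Of 10 keratins and partners of FAM83H, 7 were tested, of which 1 fell and 6 did not pass, with a median log2 fold change of -0.18. KRT19, which is also among the duct markers, had 15.7, 17.1 and 36.9 CPM in PANC1OR, against 243, 465 and 270 CPM in PANC1 (log2 fold change -3.81 ± 0.43, SE; edgeR adjusted p = 0.000635). Every PANC1OR library lay far below every PANC1 library. KRT18, a partner in the filaments that FAM83H binds, averaged 315 ± 114 CPM in PANC1OR and 338 ± 104 CPM in PANC1 (edgeR adjusted p = 0.870), and the nuclear speckle protein gene SON averaged 433 ± 25.3 CPM in PANC1OR and 461 ± 64.1 CPM in PANC1 (edgeR adjusted p = 0.794). The adaptor genes NCK1 and NCK2 averaged 33.2 ± 9.74 and 33.6 ± 8.88 CPM in PANC1OR and 48.1 ± 3.88 and 48.4 ± 1.75 CPM in PANC1, with edgeR adjusted p values of 0.210 and 0.167. NCK2 was called lower without PANC1OR replicate 3 (log2 fold change -0.77, against -0.53 with it; edgeR adjusted p = 0.000859). KRT7 averaged 1.82 ± 1.37 CPM in PANC1OR and 0.747 ± 0.443 CPM in PANC1 and did not pass (edgeR adjusted p = 0.213). KRT5, KRT14 and KRT17 had at most 2 reads in either line and were not tested. The number called was 2 without PANC1OR replicate 3, both lower, where 44.1% of all tested genes were called.

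Of the 6 phospholipase D genes, the enzymes whose fold DUF1669 resembles, 5 were tested, of which 1 rose and 4 did not pass, with a median log2 fold change of 0.47. PLD4, an endolysosomal member, had 2.50, 3.00 and 5.95 CPM in PANC1OR, against 0.934, 1.46 and 0.734 CPM in PANC1 (log2 fold change 1.88 ± 0.44, SE; edgeR adjusted p = 0.0213). PLD6, PLD1 and PLD2 did not pass. PLD6 averaged 5.23 ± 0.77 CPM in PANC1OR and 2.84 ± 0.69 CPM in PANC1 without overlap (edgeR adjusted p = 0.0655), PLD1 averaged 71.7 ± 14.3 CPM in PANC1OR and 51.6 ± 7.87 CPM in PANC1 (edgeR adjusted p = 0.20), and PLD2 averaged 23.3 ± 8.80 CPM in PANC1OR and 17.8 ± 2.74 CPM in PANC1 (edgeR adjusted p = 0.445). The call of PLD4 was lost without PANC1 replicate 1 or 3. Without PANC1OR replicate 3 the number called was 3, all higher, as PLD1 (log2 fold change 0.61, against 0.47 with it) and PLD6 (0.76, against 0.88 with it) then passed, with edgeR adjusted p values of 0.00849 and 0.0304. In that fit 44.1% of all tested genes were called.

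The genes next to the other members were examined in the same way, as the 3 nearest tested genes on each side. Of 48 such genes, each counted 1 time, 10 rose and 1 fell, while 10.3% of all tested genes rose and 7.5% fell. One of the 10 is the noncoding RNA inside FAM83B, whose reads cannot be told apart from those of FAM83B, and without it 9 of 47 rose. FAM83C had 3 neighbours that rose, FAM83B had 2 beside the noncoding RNA, FAM83E had 2, and FAM83D and FAM83F had 1 each, while the neighbours of FAM83A, FAM83G and FAM83H did not pass the test. Beside FAM83C, the centrosome protein gene CEP250 had 226, 237 and 369 CPM in PANC1OR, against 83.7, 82.9 and 72.9 CPM in PANC1 (log2 fold change 1.80 ± 0.23, SE; edgeR adjusted p = 0.00137). UQCC1, an assembly factor of respiratory complex III, averaged 86.6 ± 3.68 CPM in PANC1OR and 41.1 ± 2.87 CPM in PANC1 (log2 fold change 1.07 ± 0.17, SE; edgeR adjusted p = 0.00349). Their groups did not overlap, and CEP250-AS1 was the third neighbour of FAM83C that rose (edgeR adjusted p = 0.0391). CEP250-AS1 lies within the CEP250 gene on the opposite strand, and the strand setting of the counts is not given. Whether its reads came from CEP250 was not tested. Its call was lost with the replicate number as a block, and when PANC1OR replicate 1 or 2, or PANC1 replicate 1 or 2, was left out. EIF6, a ribosome assembly factor gene beside FAM83C, was not called and had 98.0, 103 and 240 CPM in PANC1OR, against 43.8, 85.3 and 47.3 CPM in PANC1 (edgeR adjusted p = 0.0628), and was called higher when any 1 of the PANC1OR libraries was left out, at a log2 fold change of 0.77 without replicate 3, against 1.32 with all 6 libraries.

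Near FAM83D, ARHGAP40 had 5.98, 6.56 and 9.0 CPM in PANC1OR, against 0.125, 0 and 0.122 CPM in PANC1 (log2 fold change 6.14 ± 0.49, SE; edgeR adjusted p = 0.00013). Near FAM83E, LMTK3 and SULT2B1 rose (edgeR adjusted p = 0.0247 and 0.0232), both with their highest values in PANC1OR replicate 3. Their log2 fold changes were 1.89 and 2.62 with all 6 libraries and 1.16 and 1.83 without PANC1OR replicate 3, and both calls were lost when any 1 PANC1 library was left out. Near FAM83F, the stress-response transcription factor gene ATF4 averaged 267 ± 41.6 CPM in PANC1OR and 124 ± 28.3 CPM in PANC1 (edgeR adjusted p = 0.0106), and ADSL, an enzyme of purine synthesis, averaged 15.3 ± 2.16 CPM in PANC1OR and 25.2 ± 0.52 CPM in PANC1 and fell (edgeR adjusted p = 0.0422). The ATF4 call was lost without PANC1 replicate 1 or 3. The ADSL call was lost when any 1 library other than PANC1OR replicate 3 was left out. It was also lost with library totals only, no filter on low counts, the likelihood ratio test or the replicate number as a block. The number of neighbours called was 9 without PANC1OR replicate 1 or 2, 5, 7 and 6 without PANC1 replicates 1, 2 and 3, and 25 without PANC1OR replicate 3. This last fit called 44.1% of all tested genes, against 17.8% with all 6 libraries.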

How the data were processed

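RNA from 3 PANC1OR and 3 PANC1 cultures was sequenced after a library preparation for messenger RNA, per the labels' protocols. The authors deposited raw read counts per Ensembl gene, 1 column per library. Per the series design text and the submitters' processing notes, FastQC 0.11.5 was used for read quality, cutadapt for trimming, STAR 2.5 for alignment to GRCh38, and featureCounts (Subread 1.6.2) for counting. The annotation release, the strand setting and the handling of reads in more than 1 gene are not given in the sources. 5 empty columns of the table were not used.

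Counts were fitted as deposited in edgeR 4.0.16 (R 4.3.3) with filterByExpr, TMM factors and the quasi-likelihood F test, with Benjamini-Hochberg adjustment over 18751 tested genes and a threshold of 0.05; the fit was tested on simulated data first. CPM use TMM-scaled library sizes. Coordinates, exon lengths and GC content come from GENCODE 44, promoter windows from RefSeq. Ratios of low counts carry exact 95% binomial intervals. A floor of 3 reads over a group stands for a count of 0. No 2 replicates agreed within counting noise, as the smallest chi-square per degree of freedom was 2.79.

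The members and gene lists were chosen with earlier results of these data known. The text names all 8 members. In each list it names up to 4 genes of smallest p and a mean of 1 CPM or more. Known direct partners of FAM83 proteins are named too. So are the 3 nearest tested neighbours on each side of FAM83B, genes that overlap a member, and the 5 genes nearest to FAM83B in log2 CPM. Some genes named by this rule are not reported here. Other genes that passed the test in a list or beside a member, genes within 1000 kb of FAM83B and genes with 0 reads in PANC1 were named after their values were seen. Alternatives were DESeq2 1.42.0, RLE factors, library totals, 2 other filters, the likelihood ratio test, the replicate number as a block, per-library GC-trend offsets, leaving out each library, leaving out both libraries that deviated in GC, and other gene lengths.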

Additional observations from a re-analysis of the deposited data

How the results depend on the processing

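With all genes counted, the 3345 calls became 7308 with GC offsets, 11422 without PANC1OR replicate 3 and PANC1 replicate 2 together, and between 1821 and 8663 when 1 library was left out. Of the genes tested, 17.8% were called in the main fit, 21.7% with DESeq2 and 20.5% with the likelihood ratio test. The share was 11.4% without a filter, 17.7% with library totals only, 39.0% with GC offsets and 9.3% to 44.1% with 1 library left out. Without PANC1OR replicate 3 and PANC1 replicate 2 together it was 58.5%. Members called numbered 1, against 2 with DESeq2 and with the likelihood ratio test, 3 without a filter, with GC offsets and without both of those libraries, and 1 to 2 with 1 library left out. The log2 fold change of FAM83H was 0.45 and ranged from -0.25 without PANC1OR replicate 3 to 0.70 without PANC1OR replicate 2, and reversed to -0.22 without both. Under GC offsets the calls in the lists numbered 4 for casein kinase 1, 12 for EGFR, RAS, RAF and PI3K signalling, 10 for mitotic genes, 11 for BMP-SMAD and Wnt, 4 for keratins, 3 for phospholipase D and 21 for neighbours of members. Without both libraries they numbered 5, 22, 12, 17, 5, 3 and 29 in the same order. With 1 library left out they ranged from 0 to 4, 2 to 15, 0 to 10, 2 to 13, 1 to 2, 0 to 3 and 5 to 25. Casein kinase 1 calls were 1 with library totals only and with the likelihood ratio test and 0 without a filter. Calls in the EGFR, RAS, RAF and PI3K list were 3 without a filter, and phospholipase D calls were 2 with DESeq2. The causes were not tested. Higher calls made up 58.0% of all calls, 51.0% with GC offsets, 50.1% without PANC1OR replicate 3 and 49.6% without both libraries.

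Deviations of same-numbered libraries from their line's mean correlated at 0.46, -0.45 and -0.22. The highest correlation, 0.51, was that of PANC1OR replicate 3 with PANC1 replicate 2, the libraries that deviated in GC. These values include that GC deviation, so they cannot decide whether same-numbered samples were paired. With the replicate number as a block, 2324 genes (12.4% of those tested) were called, 1 member, 0 casein kinase 1 genes, 2 of the EGFR list, 1 mitotic gene and 10 of the 18 partner genes called without it. Counted over genes and alternatives, 54 fold changes of members stayed close, 4 moved and 2 reversed, while for named partner genes 397 stayed on their side of the threshold, 35 became called and 48 were no longer called. FAM83G in PANC1 moved to 4.73 CPM per kilobase with the longest transcript. Depth limits FAM83A, FAM83E and FAM83F, whose counts allow differences in either direction.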
